A study of Mus musculus with 12 samples.

Results

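The nuclear genes that encode the subunits of the mitochondrial oxidative phosphorylation complexes were followed through the conversion of mouse fibroblasts to induced pluripotent stem cells (iPSCs). Members were the rows of the expression table whose symbols start with Ndufa, Ndufb, Ndufc, Ndufs, Ndufv, Sdha, Sdhb, Sdhc, Sdhd, Uqcr, Cox4, Cox5, Cox6, Cox7, Cox8 or Atp5 and that reached 1 FPKM (fragments normalized to transcript length in kilobases and to library size) in any library. Of 24098 rows, 94 carried such a symbol and 92 reached the level. Cox7b2, with at most 0.153 FPKM (in D16S+), and Cox8c, with at most 0.985 FPKM (in mESCs), stayed below it, and Cox6a2, with 1.56 FPKM in D0, was the member nearest above it. The 92 members held 36 subunits of complex I, 4 of complex II, 8 of complex III, 18 of complex IV and 15 of complex V. The other 11 share a prefix but are assembly factors or other proteins (Ndufaf1 to Ndufaf7, Sdhaf1, Sdhaf2, Atp5s and Atp5sl).

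Polyadenylated RNA was sequenced in 12 libraries, 1 per condition. Mouse embryonic fibroblasts (MEFs), from midgestation embryos with an IRES-EGFP cassette after the Oct4 stop codon, were taken before infection (D0) and 3 days after the start of infection with pMXs retroviruses for Oct4, Sox2, Klf4 and c-Myc (D3). On days 6 and 9 the cells were sorted on the fibroblast surface marker Thy-1 (D6T-, D6T+, D9T- and D9T+), and on days 12 and 16 on the pluripotency marker SSEA-1 (D12S+, D12S-, D16S+ and D16S-). Fully reprogrammed iPSCs and the wild-type embryonic stem cell line ES-D3 (mESCs), which received no virus, completed the set. MEFs were kept in DMEM with serum. The labels place the infected cells, iPSCs and mESCs in a serum replacement medium with LIF, ascorbic acid, bFGF, CHIR99021 and N-2. The study's methods also name a serum medium and a simpler serum replacement medium, for reprogramming and for both cell lines, so the medium of each library is uncertain. What the study calls the successful route runs from D0 and D3 over the Thy-1 negative and then the SSEA-1 positive fractions to iPSCs, and the other 4 sorted fractions are called unsuccessful. With 1 library per condition no difference below has a replicate check, and no test was made. In bulk RNA, fewer cells of a type and less RNA per cell cannot be told apart.

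Oxidative phosphorylation passes electrons from NADH (complex I) and succinate (complex II) through complex III and cytochrome c to oxygen at complex IV, and the proton gradient so built drives ATP synthase (complex V). Most subunits are encoded in the nucleus and are made in nearly all cells, while a few complex IV subunits have isoforms known from muscle, lung, testis or oxygen-poor cells. Pluripotent cells are known to lean on glycolysis more than fibroblasts do, and the mitochondrial complexes are a common point of comparison between these states. The 13 subunits encoded by mitochondrial DNA were not analysed here.

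Labels were checked against marker genes. The summed FPKM of 8 fibroblast markers was 9723 in D0, 40.7 in D16S+, 57.6 in iPSCs and 51.7 in mESCs, and that of 8 pluripotency markers was 2.2 in D0, 4781 in D16S+, 3555 in iPSCs and 4120.4 in mESCs. Epidermal markers summed to 7.6 FPKM in D0 and 275 FPKM in D16S-, the highest of the 12 and most of it Sfn (194 FPKM). They also summed to 214 FPKM in D12S+, 213 in D16S+ and 188 in iPSCs, with Sfn at 163, 176 and 180 FPKM there. Their part in the values of these libraries below was not tested. Leukocyte markers summed to 33.5 FPKM in D0 and 126 FPKM in D16S-, but the rise was Cd68 alone (9.05 to 115 FPKM). Of the 5 kept 1 was at least 1.5-fold higher and 3 lower (Lyz2, Tyrobp and Fcer1g), where 21.2% and 23.0% of all genes were. The median of the 5 was -1.21 on the log2 scale. The total of the FPKM column ran from 484968 in D16S+ to 648264 in D0. The number of reads per library is unknown, and the deposited interval of a member value above 10 FPKM had a median half-width of 96.5% of the value, so that no member had intervals that lay apart in any comparison below.

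NRF1 and the ETS factor GABP are known regulators of nuclear respiratory chain genes, and their binding letters were looked for in the members' promoters. RefSeq start sites on GRCm38.p6 were found for 77 of 92 members, with 83 windows of 250 bases before the start. The NRF1 half-site letters TGCGCA, which read the same on both strands, were in 16 of the 83 windows (19.3%) and in 6.43% of all 32851 windows. The ETS letters CCGGAAG, or CTTCCGG on the other strand, were in 14 windows (16.9%) and in 6.91% of all windows. The 2 words do not overlap. Median GC content was 57.2% in members' windows and 52.4% in all windows, and its part in these shares was not tested. Complex I had the NRF1 half-site in 8 of 34 subunit windows and the ETS letters in 3, and complex III had them in 0 and 2 of 5. The subunit window with most of these words in each complex, with ties settled by expression, was Ndufb6 (chr4:40279422-40279671, minus strand), Sdhd (chr9:50603850-50604099, minus strand), Uqcr11 (chr10:80406822-80407071, minus strand), Cox6a1 (chr5:115348959-115349208, minus strand) and Atp5l (chr9:44920743-44920992, minus strand). Cox7a1 (chr7:30183921-30184170, plus strand), whose isoform results follow, is shown as a window without either word. The words are in capitals, and each window reads 5′ to 3′ toward the start site.
Ndufb6: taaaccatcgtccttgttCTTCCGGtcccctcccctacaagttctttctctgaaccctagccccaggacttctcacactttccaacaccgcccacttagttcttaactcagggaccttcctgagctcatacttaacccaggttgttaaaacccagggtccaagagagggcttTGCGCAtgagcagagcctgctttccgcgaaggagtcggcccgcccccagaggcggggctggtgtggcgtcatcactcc
Sdhd: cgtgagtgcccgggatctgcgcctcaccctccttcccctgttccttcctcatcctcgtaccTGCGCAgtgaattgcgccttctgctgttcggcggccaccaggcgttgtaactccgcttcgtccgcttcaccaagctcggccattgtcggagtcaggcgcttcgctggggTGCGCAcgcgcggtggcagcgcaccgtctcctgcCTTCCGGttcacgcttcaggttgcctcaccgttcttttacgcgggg
Uqcr11: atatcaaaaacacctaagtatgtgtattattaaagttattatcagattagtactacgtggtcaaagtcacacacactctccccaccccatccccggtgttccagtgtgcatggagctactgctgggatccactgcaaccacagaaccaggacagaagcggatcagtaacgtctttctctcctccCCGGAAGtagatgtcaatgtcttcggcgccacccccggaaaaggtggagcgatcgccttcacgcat
Cox6a1: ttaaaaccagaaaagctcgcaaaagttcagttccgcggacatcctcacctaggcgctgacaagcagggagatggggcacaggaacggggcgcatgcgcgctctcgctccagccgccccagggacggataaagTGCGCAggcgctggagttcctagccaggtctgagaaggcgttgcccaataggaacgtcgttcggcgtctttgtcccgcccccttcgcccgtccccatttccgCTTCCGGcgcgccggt
Atp5l: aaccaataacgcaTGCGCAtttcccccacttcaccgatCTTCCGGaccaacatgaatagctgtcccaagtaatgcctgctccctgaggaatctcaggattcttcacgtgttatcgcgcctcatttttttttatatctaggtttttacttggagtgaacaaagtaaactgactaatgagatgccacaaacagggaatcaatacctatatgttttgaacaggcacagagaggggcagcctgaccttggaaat
Cox7a1: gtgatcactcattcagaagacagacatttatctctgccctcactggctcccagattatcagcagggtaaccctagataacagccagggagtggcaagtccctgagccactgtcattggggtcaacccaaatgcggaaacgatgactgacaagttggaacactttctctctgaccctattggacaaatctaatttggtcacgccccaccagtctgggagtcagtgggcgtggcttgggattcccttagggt
The median of the mean FPKM over libraries was 123 for the 22 subunit genes with either word and 134 for the 45 with neither.

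The members took 3.07% of all FPKM in D0, 3.39% in D3 and 3.71% in D6T-, and then 3.16% in D9T-, 3.10% in D12S+ and 2.99% in D16S+. iPSCs stood at 3.46% and mESCs, with the highest share, at 4.06%. The unsuccessful fractions held 3.09% in D6T+, 2.94% in D9T+, 2.93% in D12S- and 2.69% in D16S-, the lowest of the 12. Within the route, complexes III and V both had their highest share in D6T- (0.482% and 1.16%), from 0.389% and 0.881% in D0, and stood at 0.298% and 0.910% in D16S+ and at 0.471% and 1.28% in mESCs. Complex I varied least in share among the large complexes, from 0.784% in D16S- to 1.03% in mESCs.

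**Figure D1:**
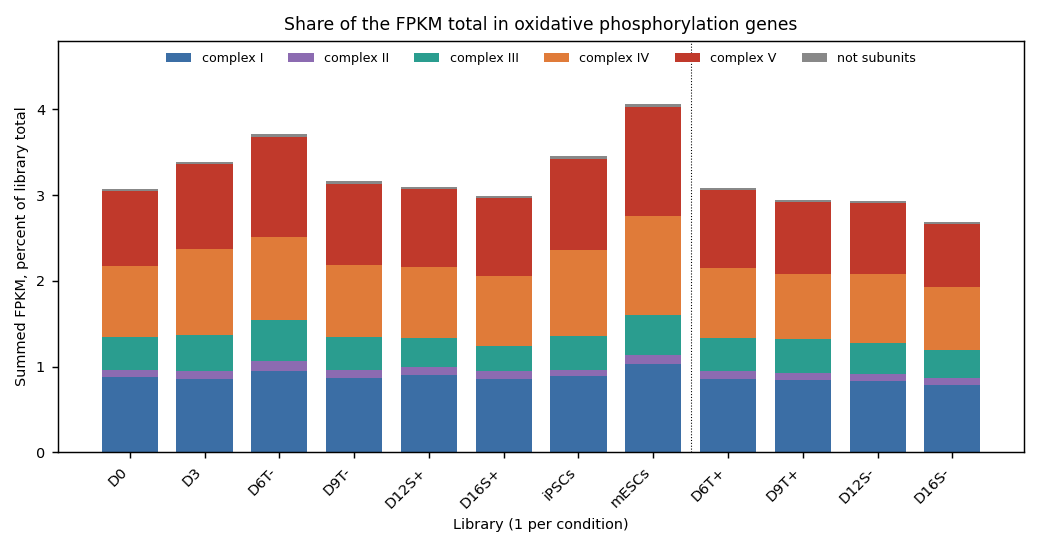
Summed FPKM of the 92 genes as a percent of each library's FPKM total (vertical axis from 0), split by complex, for the 12 libraries with the unsuccessful fractions to the right of the dotted line. The tallest bars are mESCs (4.06%) and D6T- (3.71%) and the shortest is D16S- (2.69%).

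Each complex had an abundant member that was read in every library. Atp5b, the catalytic beta subunit of ATP synthase (chr10:127520329-127527447, mm9, plus strand), had the highest mean of all members. It stood at 958 FPKM in D0, 1225 in D3, 1354 in D6T-, 1025 in D9T-, 958 in D12S+, 1181 in D16S+, 1459 in iPSCs, 1840.5 in mESCs, 1062 in D6T+, 855 in D9T+, 869.6 in D12S- and 738 in D16S-. Its lowest value was in D16S- and its highest in mESCs. Cox4i1, the common isoform of the largest nuclear complex IV subunit, led complex IV with 872 FPKM in D0, 1001 in D3, 869 in D6T-, 841 in D9T-, 681 in D12S+, 600.0 in D16S+, 940.4 in iPSCs, 1271 in mESCs, 729 in D6T+, 838 in D9T+, 749 in D12S- and 675 in D16S-. It was lowest in D16S+ and highest in mESCs. Uqcr10, a small complex III subunit, had 551 FPKM in D0, 461 in D3, 524 in D6T-, 427 in D9T-, 435 in D12S+, 321 in D16S+, 544 in iPSCs, 744 in mESCs, 433 in D6T+, 482 in D9T+, 398 in D12S- and 380.2 in D16S-. Ndufa7, an accessory subunit of complex I, had 433 FPKM in D0, 371 in D3, 381 in D6T-, 377 in D9T-, 476 in D12S+, 478 in D16S+, 519 in iPSCs, 686 in mESCs, 406 in D6T+, 431 in D9T+, 421 in D12S- and 403 in D16S-, and here D12S+, D16S+, iPSCs and mESCs were above D0 and the other 7 libraries below it. Sdhc, a membrane anchor of succinate dehydrogenase, had 167 FPKM in D0, 114 in D3, 133 in D6T-, 141 in D9T-, 131 in D12S+, 135 in D16S+, 107 in iPSCs, 178 in mESCs, 145 in D6T+, 133 in D9T+, 131 in D12S- and 118 in D16S-, with iPSCs the lowest. Ndufaf2, a complex I assembly factor, led the members that are not subunits with 51.7 FPKM in D0, 49.8 in D3, 50.8 in D6T-, 51.3 in D9T-, 44.7 in D12S+, 30.9 in D16S+, 39.9 in iPSCs, 45.6 in mESCs, 40.6 in D6T+, 47.2 in D9T+, 44.4 in D12S- and 34 in D16S-.

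Most members varied less than the typical gene with a mean of at least 10 FPKM. The coefficient of variation over the 12 libraries had a median of 22% in the 80 members with such a mean. It was 33.2% in all 6624 such genes, and levels above that limit were not matched. Sdha, the flavoprotein that oxidises succinate, varied least, at 8.25%, between 85.6 FPKM in D16S- and 119.8 FPKM in D6T-. The 10 members above 50% were Cox6a2, Cox4i2, Cox7a1, Ndufa4l2, Cox8b, Cox5a, Ndufaf6, Atp5sl, Ndufab1 and Ndufb4, so that 6 of the 10 were complex IV subunits. mESCs held the highest value of 42 members, where 18.5% of all 14178 genes past the level rule were highest in mESCs. D16S+ and D16S- held the lowest value of 25 members each, where 9.00% and 6.42% of all genes were lowest there.

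Differences from D0 ask how far the respiratory chain of the starting fibroblasts changed along each route. They are given on the scale log2(FPKM + 1), which understates the change of low genes, and relative to the median of all 14178 genes past the level rule. Setting all libraries to the same FPKM total shifted that median by 0.08 to 0.30 over the 11 libraries, with 0.14 in D3, 0.30 in D16S+, 0.19 in D16S- and 0.16 in iPSCs. The members' median stood 0.12 below that of all genes in D3, level with it in D6T- (0.00), 0.20 below in D9T-, 0.34 below in D12S+, 0.35 below in D16S+ and 0.17 below in iPSCs, and 0.20 above in mESCs. In the unsuccessful fractions it stood 0.19 below in D6T+, 0.17 below in D9T+, 0.29 below in D12S- and 0.43 below in D16S-. With equal totals the distance was -0.01 in D3, 0.13 in D6T-, -0.09 in D9T-, -0.25 in D12S+, -0.27 in D16S+, -0.09 in iPSCs and 0.24 in mESCs. In the unsuccessful fractions it was -0.09 in D6T+, -0.10 in D9T+, -0.19 in D12S- and -0.33 in D16S-. As deposited, the 8804 genes that reached 10 FPKM in any library had lower medians than all genes. They were -0.10 in D3, -0.06 in D6T-, -0.09 in D9T-, -0.07 in D12S+, -0.11 in D16S+, -0.03 in iPSCs and -0.01 in mESCs. Their values in the unsuccessful fractions were -0.09 in D6T+, -0.12 in D9T+, -0.11 in D12S- and -0.13 in D16S-. Where the members stood below all genes, they stood less far below these genes.

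Members past 1.5-fold were counted beside all genes. In D3, 2 members were at least 1.5-fold higher than in D0 and 6 lower, where 13.2% and 18.2% of all genes were. In D6T-, 9 were higher and 8 lower (19.6% and 24.4% of all genes). In D9T-, 8 were higher and 18 lower (22.9% and 25.2%), and in D12S+ 8 and 19 (26.4% and 26.2%). In D16S+, 16 were higher and 31 lower (31.7% and 30.5%), so that 17.4% of members were higher and 33.7% lower. iPSCs had 12 higher and 12 lower (29.9% and 30.7%), and mESCs 25 higher and 6 lower (31.4% and 30.5%). D6T+ had 1 higher and 7 lower (10.5% and 11.2%), D9T+ 4 and 12 (17.2% and 18.4%), D12S- 5 and 20 (21.3% and 23.1%), and D16S- 6 and 30 (21.2% and 23.0%). With equal totals the counts were 8 higher and 2 lower in D3, 24 and 14 in D16S+, 7 and 13 in D16S- and 20 and 6 in iPSCs, so that the balance in D3 and D16S+ turned with the scaling and the even counts of iPSCs became uneven. The shares of all genes at equal totals are not given here. The median of all genes also rose with equal totals, by 0.14 in D3, 0.30 in D16S+, 0.19 in D16S- and 0.16 in iPSCs. All these comparisons share the D0 library.

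**Figure D2:**
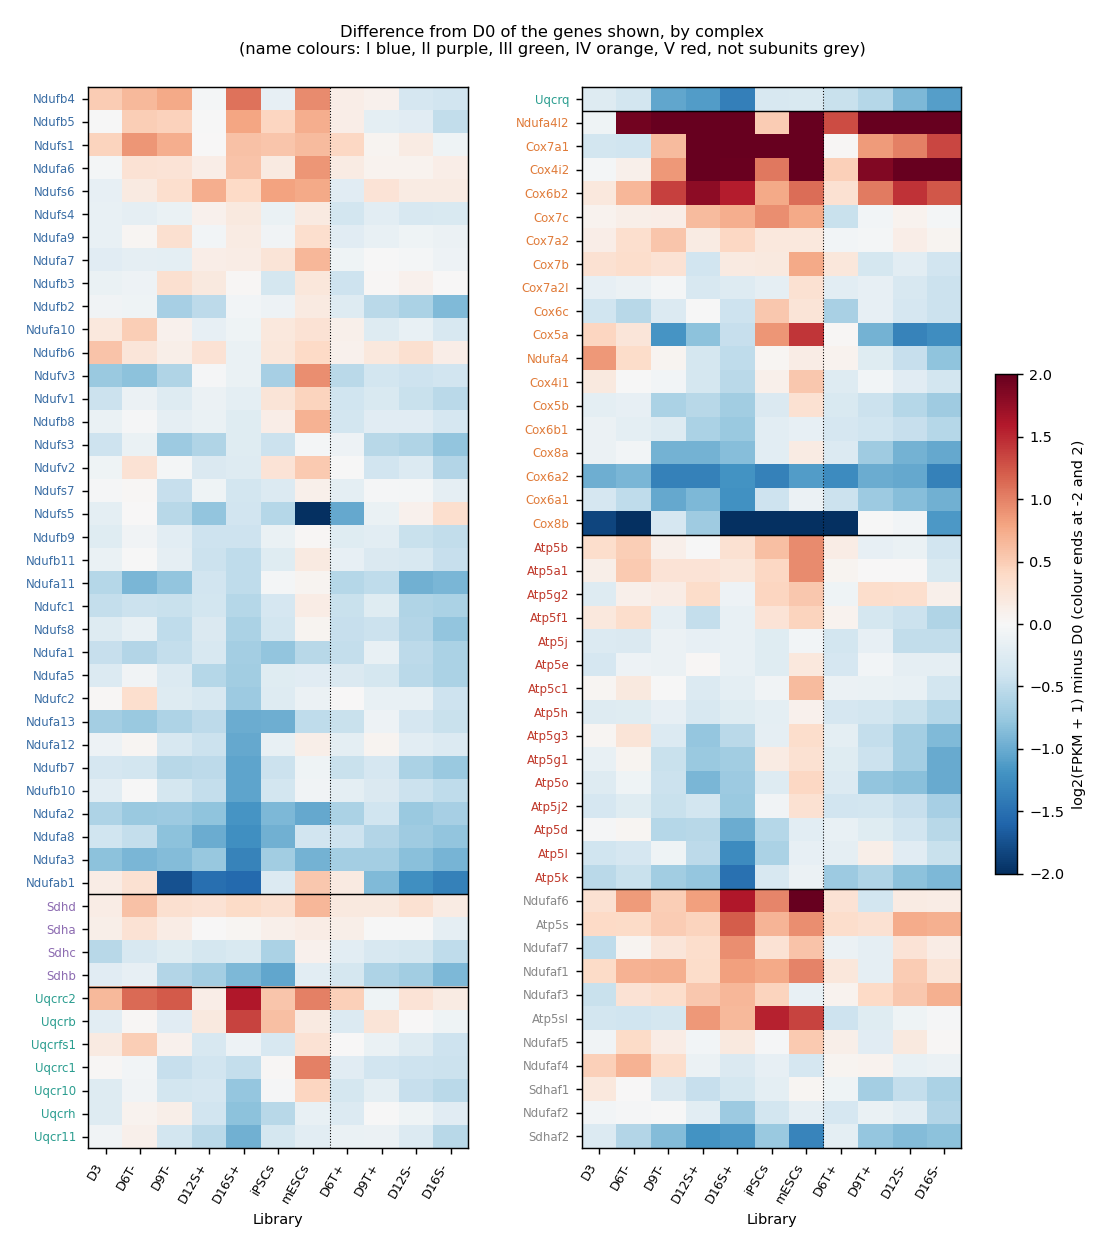
Difference of log2(FPKM + 1) from D0 (colour, cut at -2 and 2) for the genes named at the left of each panel in the other 11 libraries, grouped by complex and ordered within a complex by D16S+. Ndufa4l2, Cox7a1, Cox4i2 and Cox6b2 hold the darkest red of complex IV in D12S+ and D16S+, while Ndufab1, Cox8b and Atp5k are among the darkest blue in D16S+ (the median of all 92 in D16S+ is -0.30, and 0.08 with libraries set to equal totals).

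The successful route moved in steps. From D3 to D6T- the median member difference was 0.13 (all genes 0.02), with 2 members at least 1.5-fold higher and 0 lower (10.9% and 13.6% of all genes). From D6T- to D9T- it was -0.15 (all genes 0.01), with 5 higher and 7 lower (11.1% and 5.92%). Ndufab1, Ndufc2, Ndufs3, Uqcrq, Cox5a, Cox8a and Atp5d were those 7, and they span complexes I, III, IV and V. From D9T- to D12S+ it was -0.08 (all genes 0.01), with 4 higher and 4 lower (15.9% and 11.2%). From D12S+ to D16S+ it was -0.07 (all genes -0.03), with 7 higher and 6 lower (11.2% and 14.2%). From D16S+ to iPSCs it was 0.25 (all genes -0.01), with 18 higher and 8 lower (13.8% and 17.3%), and with equal totals it was 0.08 (all genes -0.14). On the unsuccessful side, the median from D6T+ to D9T+ was 0.01 (all genes -0.01), with 6 members at least 1.5-fold higher and 4 lower (10.7% and 7.22% of all genes). From D12S- to D16S-, 77 of 92 members were lower (median difference -0.11, all genes -0.002), while 1 was at least 1.5-fold higher and 1 lower (5.83% and 3.17% of all genes). The share of all genes lower by any amount in this step is not given here.

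In complex I the median difference from D0 was -0.16 in D3, -0.05 in D6T-, -0.37 in D16S+, -0.46 in D16S-, -0.24 in iPSCs and 0.16 in mESCs, and 12 of 36 subunits were at least 1.5-fold lower in D16S+ and 3 higher (Ndufb4, Ndufb5 and Ndufs1). Of all genes 30.5% and 31.7% were, so that the count of lower subunits was near the background. Medians and counts by complex are as deposited, and those at equal totals are not given here. The subunits of the catalytic core, which as a whole holds the flavin and the iron-sulphur clusters, did not move as a block. In D16S+ Ndufs1 differed from D0 by 0.59, Ndufv1 by -0.19, Ndufs3 by -0.24, Ndufv2 by -0.26, Ndufs7 by -0.36 and Ndufs8 by -0.64. Ndufa3, a small accessory subunit, had 663 FPKM in D0, 377 in D3, 351 in D6T-, 362 in D9T-, 391 in D12S+, 261 in D16S+, 409.9 in iPSCs, 343 in mESCs, 412 in D6T+, 414 in D9T+, 372 in D12S- and 349 in D16S-. D0 was its highest library by a wide margin, and the gap to D3 was 0.81 on the log2 scale. Ndufb6, an accessory subunit of the membrane arm, had 81.7 FPKM in D0, 122 in D3, 96.8 in D6T-, 88.2 in D9T-, 99.9 in D12S+, 74.7 in D16S+, 95.5 in iPSCs, 108 in mESCs, 86.4 in D6T+, 95 in D9T+, 102 in D12S- and 89.2 in D16S-, with D3 the highest.

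Ndufab1, the mitochondrial acyl carrier protein (chr7:129228917-129245400, mm9, minus strand), had 31.8 FPKM in D0, 35.5 in D3, 39.3 in D6T-, 8.78 in D9T-, 10.5 in D12S+, 10.1 in D16S+, 26.1 in iPSCs, 46.5 in mESCs, 36 in D6T+, 16.7 in D9T+, 13 in D12S- and 11.8 in D16S-. It was at 26.1 FPKM or more in D0, D3, both day 6 fractions, iPSCs and mESCs and at 16.7 or less in the libraries of days 9 to 16, without regard to the sort. Ndufv3, a subunit of the NADH-oxidising module, had 225 FPKM in D0, 134 in D3, 126 in D6T-, 148 in D9T-, 222 in D12S+, 205 in D16S+, 141 in iPSCs, 429 in mESCs, 155 in D6T+, 175 in D9T+, 169 in D12S- and 171 in D16S-, with mESCs apart from the rest. Ndufs5, an accessory subunit at the intermembrane face, had 13.2 FPKM in D0, 11.4 in D3, 13.3 in D6T-, 8.68 in D9T-, 7.21 in D12S+, 9.93 in D16S+, 8.62 in iPSCs, 1.5 in mESCs, 6.01 in D6T+, 12 in D9T+, 14.1 in D12S- and 17 in D16S-, and stood at -2.51 in mESCs against D0 on the log2 scale, where Cox8b was lower still (-2.63). Ndufb4, another membrane arm subunit, was low throughout, with 1.71 FPKM in D0, 2.87 in D3, 3.25 in D6T-, 3.56 in D9T-, 1.63 in D12S+, 4.74 in D16S+, 1.42 in iPSCs, 4.24 in mESCs, 1.96 in D6T+, 1.88 in D9T+, 1.15 in D12S- and 1.08 in D16S-. For Ndufab1, Ndufs5 and Ndufb4 the genome holds near-identical copies (at least 97% identity over 90% of the coding sequence) at 2, 1 and 2 other loci, and reads matching more than 1 locus had been removed, so their levels are uncertain.

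Complex II, which also serves the citric acid cycle, split by subunit. Sdhb, its iron-sulphur subunit, had 182 FPKM in D0, 156 in D3, 163 in D6T-, 120.3 in D9T-, 114 in D12S+, 96.7 in D16S+, 88.4 in iPSCs, 156 in mESCs, 142 in D6T+, 118 in D9T+, 112 in D12S- and 97 in D16S-. D0 was highest and iPSCs lowest, a difference of -1.03 on the log2 scale, among the 3 most negative of any member between these libraries. Sdhd differed from D0 by 0.67 in mESCs and 0.39 in D16S+, and Sdha by 0.14 and 0.04.

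As deposited, the small complex III subunits Uqcrq, Uqcr10, Uqcr11 and Uqcrh were at least 1.5-fold lower in D16S+ than in D0. Uqcrc2 and Uqcrb were at least 1.5-fold higher. Uqcrc2, a core protein of the complex (chr7:127778690-127802992, mm9, plus strand), had 20.2 FPKM in D0, 32.1 in D3, 45.7 in D6T-, 48.3 in D9T-, 22.2 in D12S+, 63.6 in D16S+, 30.0 in iPSCs, 41.5 in mESCs, 28.6 in D6T+, 18.9 in D9T+, 24.5 in D12S- and 22.8 in D16S-. D6T-, D9T- and D16S+ were its 3 highest libraries, and each stood above its sorted counterpart. Uqcrb had 20.0 FPKM in D16S+ and between 5.78 and 11.4 FPKM elsewhere, and has 3 near-identical loci. Uqcrc1, the other core protein, stood at 539 FPKM in mESCs and between 192 and 272 FPKM in the other 11 libraries.

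As deposited, complex V had no subunit of 15 at least 1.5-fold higher in D16S+ or D16S- than in D0 (31.7% and 21.2% of all genes). In each, 6 were lower (30.5% and 23.0%). Counts for complex V at equal totals are not given here, and the balance of all members in D16S+ turned with that scaling. In mESCs 3 (Atp5a1, Atp5b and Atp5c1) were higher than in D0 and 0 lower (31.4% and 30.5%). Atp5k, the small e subunit of the membrane part, had 916 FPKM in D0, 631 in D3, 669.7 in D6T-, 567 in D9T-, 536 in D12S+, 326 in D16S+, 737 in iPSCs, 847 in mESCs, 552 in D6T+, 602 in D9T+, 515 in D12S- and 490.0 in D16S-. It was highest in D0 and lowest in D16S+, and the difference of -1.49 on the log2 scale was among the 3 largest of any member in that direction. Atp5g1, Atp5g2 and Atp5g3 encode the same mature c subunit of the rotor ring. Atp5g1 had 201 FPKM in D0, 180.3 in D3, 208 in D6T-, 147 in D9T-, 119 in D12S+, 124 in D16S+, 224 in iPSCs, 247 in mESCs, 169 in D6T+, 148 in D9T+, 125 in D12S- and 99 in D16S-. Atp5g2 had 116 FPKM in D0, 96.4 in D3, 124 in D6T-, 128 in D9T-, 150.4 in D12S+, 108 in D16S+, 156 in iPSCs, 169 in mESCs, 109 in D6T+, 148 in D9T+, 146 in D12S- and 124 in D16S-. Atp5g3 had 367 FPKM in D0, 377 in D3, 439 in D6T-, 303 in D9T-, 214 in D12S+, 253 in D16S+, 323 in iPSCs, 471 in mESCs, 320.2 in D6T+, 264 in D9T+, 229 in D12S- and 199 in D16S-. Atp5g3 was the largest part in every library, and the share of Atp5g2 in the 3 genes went from 16.9% in D0 to 31.1% in D12S+ and 29.2% in D12S-, with 22.2% in iPSCs and 19.1% in mESCs. Atp5g1 and Atp5g2 have near-identical copies elsewhere in the genome.

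The members with the widest range were isoforms of complex IV subunits, and they did not share a pattern. Ndufa4l2 (chr10:126951995-126954208, mm9, plus strand), a paralogue of the complex IV subunit Ndufa4 that is known to be induced under low oxygen, had 0.626 FPKM in D0, 0.531 in D3, 5.2 in D6T-, 58.5 in D9T-, 176 in D12S+, 87.4 in D16S+, 1.3 in iPSCs, 119 in mESCs, 3.02 in D6T+, 54 in D9T+, 306 in D12S- and 269 in D16S-. It was below 6 FPKM up to day 6 and in iPSCs, and above 50 FPKM from day 9 to day 16 in every fraction and in mESCs. Ndufa4 itself had 344 FPKM in D0, 628 in D3, 446 in D6T-, 358 in D9T-, 270.3 in D12S+, 241 in D16S+, 352 in iPSCs, 383 in mESCs, 361 in D6T+, 289.8 in D9T+, 250.4 in D12S- and 196 in D16S-. Its highest value was in D3 and its lowest in D16S-, where Ndufa4l2 made up 57.8% of the summed FPKM of the pair. The same share was 0.182% in D0, 1.15% in D6T-, 14% in D9T-, 39.4% in D12S+, 26.6% in D16S+, 0.368% in iPSCs, 23.7% in mESCs and 55.0% in D12S-.

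Cox4i2 (chr2:152579909-152590773, mm9, plus strand), the isoform of Cox4i1 known from lung and from cells in low oxygen, had 0.0806 FPKM in D0, 0.0536 in D3, 0.154 in D6T-, 0.961 in D9T-, 6.87 in D12S+, 3.25 in D16S+, 1.25 in iPSCs, 25.7 in mESCs, 0.51 in D6T+, 2.88 in D9T+, 14.3 in D12S- and 22.9 in D16S-. As with Ndufa4l2, D12S- and D16S- stood above D12S+ and D16S+, while mESCs were its highest library. At most 3.28% of the summed FPKM of Cox4i1 and Cox4i2 came from Cox4i2, in D16S-. Other genes known to respond to low oxygen were also high in these libraries. Of the 13 in that list, 12 were at least 1.5-fold higher than D0 in D12S- and in D16S-, 11 in D12S+, 9 in D16S+, 10 in mESCs and 5 in iPSCs, with medians of 3.18, 2.68, 3.39, 1.96, 1.62 and -0.18 on the log2 scale. The shares of all genes that high in those libraries were 21.3%, 21.2%, 26.4%, 31.7%, 31.4% and 29.9%. Car9, a carbonic anhydrase, had 0.152 FPKM in D0, 0.17 in D3, 0.0487 in D6T-, 2.17 in D9T-, 14.3 in D12S+, 7.55 in D16S+, 0.255 in iPSCs, 1.3 in mESCs, 0.302 in D6T+, 2.18 in D9T+, 32.3 in D12S- and 54.7 in D16S-. Egln3, a prolyl hydroxylase that acts on HIF, had 11.3 FPKM in D0, 5.91 in D3, 6.79 in D6T-, 32.7 in D9T-, 138 in D12S+, 46.8 in D16S+, 3 in iPSCs, 10.8 in mESCs, 6.23 in D6T+, 20.5 in D9T+, 178 in D12S- and 144 in D16S-. Car9 and Egln3 were higher in D12S- and D16S- than in D12S+ and D16S+, but the 13 did not all share this. On day 12, 1 of the 13 was at least 1.5-fold higher in D12S+ and 1 lower (median -0.23, 11.2% and 11.8% of all genes). On day 16, 1 was higher in D16S+ and 6 lower (median -0.52, 22.6% and 25.7%). Bnip3 was higher in both SSEA-1 positive fractions, with 39.3 against 33.7 FPKM on day 12 and 50.6 against 34.5 on day 16. The summed FPKM of the 13 ran from 962 in D0 to 3611 in mESCs. The part of oxygen supply, density or medium in the Ndufa4l2 and Cox4i2 values was not tested.

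Cox7a1 (chr7:30969190-30971047, mm9, plus strand), known as the heart and muscle isoform of the Cox7a subunit, had 7.55 FPKM in D0, 5.66 in D3, 5.45 in D6T-, 12.2 in D9T-, 34.9 in D12S+, 42.2 in D16S+, 57.7 in iPSCs, 162 in mESCs, 7.66 in D6T+, 14.4 in D9T+, 16.2 in D12S- and 20.7 in D16S-. Along the successful route its value was at least 12.2 FPKM from D9T- on, and in mESCs it matched Cox7a2, the common isoform, which had 140.2 FPKM in D0, 154 in D3, 177 in D6T-, 206 in D9T-, 158 in D12S+, 188 in D16S+, 163 in iPSCs, 163 in mESCs, 134 in D6T+, 137 in D9T+, 154 in D12S- and 146 in D16S-. Cox7a1 made up 2.96% of the summed FPKM of Cox7a1, Cox7a2 and Cox7a2l in D0, 13.2% in D16S+, 18.3% in iPSCs and 35.4% in mESCs, against 6.34% in D12S- and 8.40% in D16S-. Cox7a2l, which is known to join complexes III and IV, had 107 FPKM in D0, 95.5 in D3, 99.1 in D6T-, 105 in D9T-, 86 in D12S+, 89.6 in D16S+, 94.6 in iPSCs, 133 in mESCs, 91.9 in D6T+, 95.1 in D9T+, 85.9 in D12S- and 79 in D16S-, a range of less than 2-fold. Cox7b had 109 FPKM in D0, 135 in D3, 139 in D6T-, 134 in D9T-, 82.8 in D12S+, 124 in D16S+, 125 in iPSCs, 185 in mESCs, 127 in D6T+, 85.2 in D9T+, 93.8 in D12S- and 83.3 in D16S-.

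Cox6b2, known as the testis isoform of Cox6b, had 69.8 FPKM in D0, 80.6 in D3, 111 in D6T-, 181 in D9T-, 243 in D12S+, 208 in D16S+, 119 in iPSCs, 152 in mESCs, 86.9 in D6T+, 145 in D9T+, 193 in D12S- and 166 in D16S-. Every library after D0 was above D0, and the highest were D12S+, D16S+, D12S- and D9T-. Cox6b1, the common isoform, had 622 FPKM in D0, 575 in D3, 545 in D6T-, 522 in D9T-, 399 in D12S+, 370.3 in D16S+, 538 in iPSCs, 554 in mESCs, 492 in D6T+, 472 in D9T+, 449 in D12S- and 419 in D16S-, so that Cox6b2 made up 10.1% of the pair in D0, 37.8% in D12S+, 36.0% in D16S+, 18.1% in iPSCs and 21.6% in mESCs. A list of 7 germ cell markers was at a summed 0.2 FPKM in D0, 18.3 in D12S+, 115 in D16S+, 0.8 in D12S-, 1.1 in D9T-, 73.0 in iPSCs and 160.5 in mESCs. The largest part of the sum was Dppa3 in D9T- (1.02 FPKM), D12S+ (13.98 FPKM) and D16S+ (85.03 FPKM). In iPSCs and mESCs it was Stra8 (36.7 and 138 FPKM). All 7 were at least 1.5-fold higher than D0 in D16S+, iPSCs and mESCs (31.7%, 29.9% and 31.4% of all genes), and 3 were in D12S+ (26.4%). The part of germ cell expression in the Cox6b2 values was not tested.

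**Figure D3:**
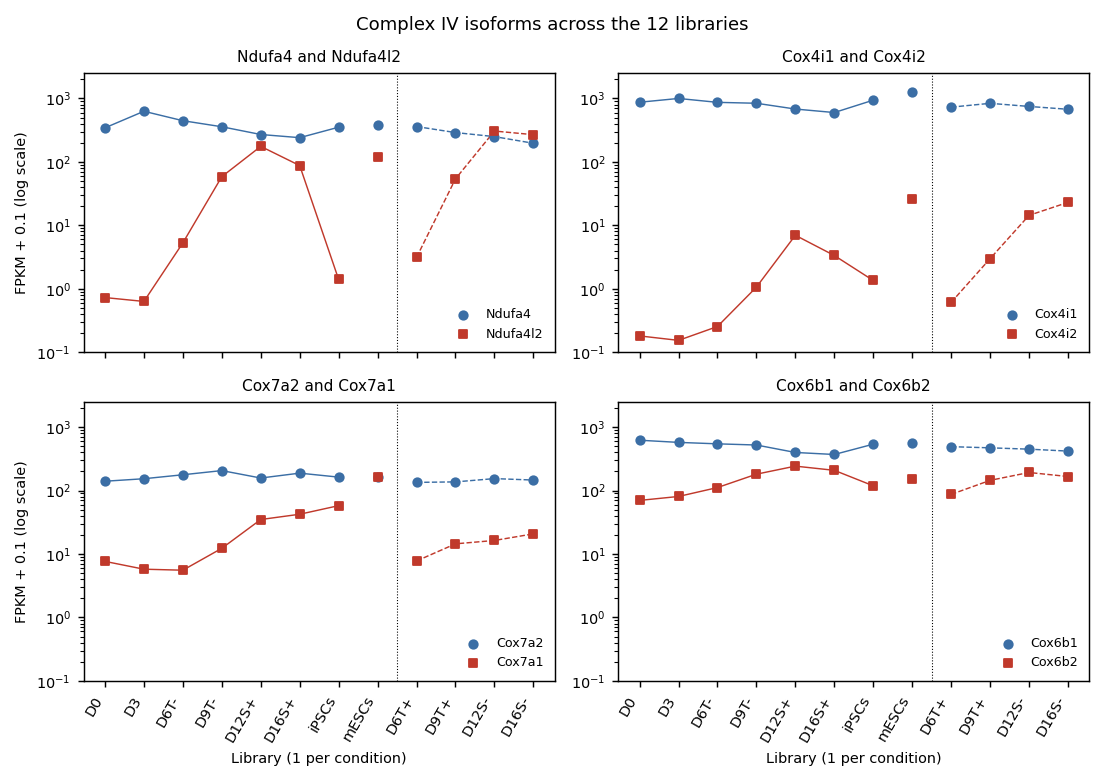
FPKM + 0.1 (log axis) of 4 pairs of complex IV isoforms in the 12 libraries, with the common isoform in blue circles and the restricted one in red squares. The solid line joins the successful route and the dashed line the unsuccessful fractions, and mESCs stand alone. Ndufa4l2 passes Ndufa4 in D12S- and D16S-, Cox7a1 meets Cox7a2 in mESCs, and Cox4i2 and Cox6b2 stay below Cox4i1 and Cox6b1 in all 12 libraries.

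The remaining muscle isoforms were low. Cox6a2, the muscle isoform of Cox6a, was at 1.56 FPKM in D0, 0.304 in D3, 0.35 in D6T-, 0 in D9T-, 0 in D12S+, 0.119 in D16S+, 0 in iPSCs, 0.178 in mESCs, 0.0724 in D6T+, 0.28 in D9T+, 0.254 in D12S- and 0 in D16S-. Cox8b, the muscle isoform of Cox8, was at 5.18 FPKM in D0, 0.736 in D3, 0.284 in D6T-, 3.92 in D9T-, 2.77 in D12S+, 0.28 in D16S+, 0.205 in iPSCs, 0 in mESCs, 0 in D6T+, 5.15 in D9T+, 4.94 in D12S- and 1.78 in D16S-. D0 had the highest value of both, with Cox8b nearly as high in D9T+ and D12S-. The common isoforms were far above them, with Cox6a1 at 962 FPKM in D0, 763 in D3, 676 in D6T-, 474 in D9T-, 518 in D12S+, 414 in D16S+, 719 in iPSCs, 887 in mESCs, 713 in D6T+, 582 in D9T+, 534 in D12S- and 495 in D16S- and Cox8a at 862 FPKM in D0, 794 in D3, 832 in D6T-, 446 in D9T-, 448 in D12S+, 478 in D16S+, 741 in iPSCs, 970.4 in mESCs, 717 in D6T+, 524 in D9T+, 448 in D12S- and 424 in D16S-. Cox6a1 and Cox8a were lower in all day 9 to day 16 libraries than in D0, D3, both day 6 fractions, iPSCs and mESCs. The summed FPKM of 12 striated muscle markers was 467 in D0, 193 in D3, 102 in iPSCs and between 21.1 and 51.1 in the other 9 libraries. Acta1 and Des made up most of the sum in iPSCs (67.2 and 25.3 FPKM) and in D3 (106 and 39.6 FPKM). All 12 were at least 1.5-fold lower in D16S+ and in mESCs than in D0 (30.5% of all genes in each). Ckm was listed at 0 in D12S- and D16S-. The part of muscle cells in the D0 values of Cox6a2 and Cox8b was not tested. Of 6 brown fat markers, Ucp1, Ppargc1a and Adipoq were at most 0.537 FPKM and Elovl3 was listed at 0 in all 12 libraries. Dio2 was at 1.98 FPKM in D0 and highest in D9T+ (8.92 FPKM). Cidea was at 0 in D0 and highest in iPSCs (3.57 FPKM) and mESCs (6.44 FPKM).

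Cox5a, a subunit at the matrix side of complex IV with no isoform among the members (chr9:57369039-57380231, mm9, plus strand), had 131 FPKM in D0, 177 in D3, 155 in D6T-, 57.1 in D9T-, 74.2 in D12S+, 95 in D16S+, 243 in iPSCs, 354 in mESCs, 134 in D6T+, 67.8 in D9T+, 51.3 in D12S- and 55.1 in D16S-. As with Ndufab1, the libraries of days 9 to 16 were all below 100 FPKM and the other 6 all above 130 FPKM. Cox7c was at least 1.5-fold higher than D0 in D12S+, D16S+, iPSCs and mESCs (0.64, 0.72, 0.93 and 0.76 on the log2 scale) and has near-identical copies.

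Between the sorted fractions the question was whether cells on the successful route differed from their counterparts of the same day. On day 6, 77 of 92 members were higher in D6T- than in D6T+, by a median of 0.21 (all genes 0.00), but 4 were at least 1.5-fold higher and 0 lower (11.1% and 17.8% of all genes). The 4 were Ndufs5, Uqcrc2, Ndufaf4 and Ndufa4l2, and all 5 complexes had a positive median, from 0.18 in complex I to 0.29 in complex III. The share of all genes higher in D6T- by any amount is not given here. On day 9 the median was 0.02 (all genes 0.02), with 8 higher and 2 lower in D9T- (9.42% and 13.4%), led by Uqcrc2 (1.31) and Ndufaf1 (0.90), with Cox4i2 (-0.99) and Ndufab1 (-0.86) at the other end. On day 12 it was 0.01 (all genes -0.01), with 3 higher and 4 lower in D12S+ (11.2% and 11.8%). Cox7a1 (1.06) and Atp5sl (0.95) led, and Cox4i2 (-0.96), Ndufs5 (-0.88), Ndufa4l2 (-0.80) and Cox8b were lower. On day 16 the median was 0.16 (all genes -0.02), with 13 higher and 8 lower in D16S+ (22.6% and 25.7%). With equal totals 19 were higher and 6 lower, and the shares of all genes at equal totals are not given here.

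Day 16 held the widest spread. Ndufb4 (1.46) and Ndufaf6 (1.46), a complex I assembly factor, were highest in D16S+ against D16S-, and Cox4i2 (-2.49) and Ndufa4l2 (-1.61) lowest. Ndufaf6 had 4.22 FPKM in D0, 5.46 in D3, 8.46 in D6T-, 6.33 in D9T-, 8.2 in D12S+, 14.8 in D16S+, 9.29 in iPSCs, 22.1 in mESCs, 5.38 in D6T+, 3.06 in D9T+, 4.84 in D12S- and 4.76 in D16S-. Ndufaf1, an assembly factor of complex I, had 3.08 FPKM in D0, 4.3 in D3, 5.63 in D6T-, 5.68 in D9T-, 4.28 in D12S+, 6.22 in D16S+, 5.88 in iPSCs, 7.14 in mESCs, 3.78 in D6T+, 2.59 in D9T+, 4.81 in D12S- and 3.89 in D16S-. Over all 4 days 23 members were higher in the successful fraction each time, among them Atp5a1, Atp5b, Cox6b2, Ndufa4 and Sdha, and 7 were lower each time (Atp5l, Cox4i2, Cox6a1, Ndufa13, Ndufa2, Ndufa8 and Sdhaf2), where 23.2% and 24.8% of all genes were. The 23 are 25% and the 7 are 7.61% of members. Sdhaf2, which attaches the flavin to Sdha, had 16 FPKM in D0, 13.1 in D3, 10.3 in D6T-, 8.33 in D9T-, 6.46 in D12S+, 6.68 in D16S+, 9.18 in iPSCs, 5.79 in mESCs, 13.9 in D6T+, 8.96 in D9T+, 8.32 in D12S- and 8.6 in D16S-. No member was past 1.5-fold in the same direction on all 4 days.

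**Figure D4:**
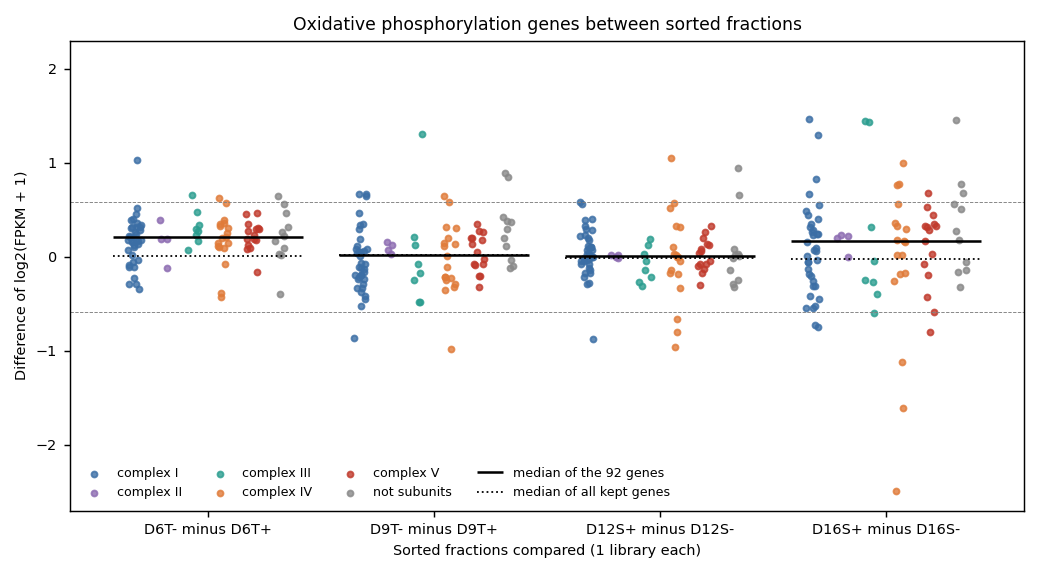
Difference of log2(FPKM + 1) between the sorted fractions of each day for the 92 genes, 1 point per gene coloured by complex, with the median of the 92 (solid), the median of all kept genes (dotted) and 1.5-fold (dashed grey). The cloud sits above the line of all genes on day 6 (median 0.21) and day 16 (0.16) and on it on days 9 and 12, and the lowest point is Cox4i2 on day 16 (-2.49).

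iPSCs and mESCs are pluripotent cells of different origin. Of 92 members, 80 were lower in iPSCs, with a median difference of -0.31 (all genes -0.01), and 15 were at least 1.5-fold lower and 2 higher (17.0% and 15.5% of all genes). All 15 complex V subunits and all 4 complex II subunits were lower in iPSCs, with 32 of 36 in complex I, 7 of 8 in complex III and 15 of 18 in complex IV. The share of all genes lower in iPSCs by any amount is not given here. The lowest members were Ndufa4l2 (-5.70), Cox4i2 (-3.57) and Ndufv3 (-1.60), and the highest Ndufs5 (1.95), Ndufaf3 (0.60) and Sdhaf2 (0.58). Ndufaf3, an assembly factor of complex I, had 21 FPKM in D0, 15.1 in D3, 26.1 in D6T-, 27.3 in D9T-, 30.9 in D12S+, 33.8 in D16S+, 29.1 in iPSCs, 18.9 in mESCs, 22.1 in D6T+, 27.9 in D9T+, 31.1 in D12S- and 35 in D16S-. With equal totals the median was -0.21 (all genes 0.05). Each of the 13 low oxygen genes also stood lower in iPSCs, past 1.5-fold, and the cell lines, the virus, the medium and the library cannot be told apart here. Atp5sl, a relative of the ATP synthase coupling factor B protein Atp5s, was the member next to Cox7a1 in its iPSCs difference from D0 (1.54), with 15 FPKM in D0, 11.4 in D3, 11.1 in D6T-, 11.5 in D9T-, 28.2 in D12S+, 24.2 in D16S+, 45.7 in iPSCs, 39.9 in mESCs, 11 in D6T+, 12.6 in D9T+, 14.1 in D12S- and 14.7 in D16S-.

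Members are short genes, and length moved with the differences from D0. Their coding transcripts had a median of 691 bases in GENCODE M1 (89 members with a length), against 2250 for all genes. In D16S+ against D0 the 61 members under 1000 bases had a median difference of -0.51 and the 28 longer ones -0.07, and of the 31 that were at least 1.5-fold lower, 28 were among the short members. All genes split the same way had medians of -0.03 and 0.05. The share of short genes among all genes at least 1.5-fold lower is not given here. In D16S- the members' values were -0.51 and -0.38, in D9T- -0.26 and -0.02, and in iPSCs -0.22 and 0.07. The iPSCs values differ in sign as deposited. With equal totals the median of all 92 in iPSCs turned to 0.10, and the short and long values at equal totals are not given here. Over the 11 libraries the long members' median less that of the short members ran from -0.01 in D9T+ to 0.45 in D16S+, and the same gap over all genes from -0.08 to 0.11. Between D16S+ and D16S- the short members had a median of -0.04 and the long members 0.33, while all genes had -0.01 and -0.03. In mESCs against D0 the members' values were 0.17 and 0.32. The part of fragment size or RNA quality in these libraries was not tested. Members without near-identical copies, 75 of 89, had distances from all genes within 0.1 of those given above in all 9 comparisons recomputed.

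**Figure D5:**
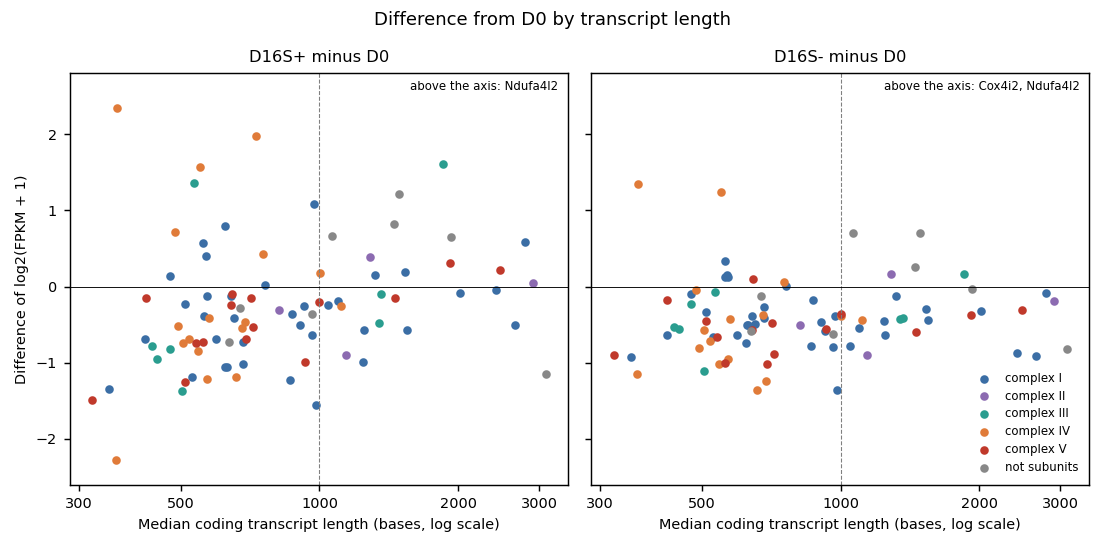
Difference of log2(FPKM + 1) from D0 (vertical axis) against the median coding transcript length in bases (log axis) for the 89 genes with a length, in D16S+ (left) and D16S- (right), with 1000 bases dashed. In D16S+ the short genes lie mostly below 0 (median -0.51) and the long genes near 0 (-0.07), and in D16S- both lie below 0 (-0.51 and -0.38). With libraries set to equal totals the median of all 92 in D16S+ is 0.08.

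Other genes of the pathway were read from lists. Of 48 assembly factors, 9 of which are members by the prefix rule, 12 were at least 1.5-fold higher and 11 lower in D16S+ than in D0, with a median of -0.23. Of all genes, 31.7% were higher and 30.5% lower in D16S+, 21.2% and 23.0% in D16S-, 29.9% and 30.7% in iPSCs and 31.4% and 30.5% in mESCs, and the counts below are to be read against these. Of 77 mitochondrial ribosomal proteins, 13 were higher and 17 lower in D16S+ (median -0.25), 1 and 25 in D16S- (-0.39), 24 and 8 in iPSCs (0.24) and 27 and 10 in mESCs (0.36). The citric acid cycle and pyruvate dehydrogenase, 18 genes that feed NADH and succinate to the chain, had 3 higher and 3 lower in D16S+ (0.12) and 5 higher and 0 lower in mESCs (0.44). Of 14 regulators of mitochondrial gene expression, 8 were higher and 1 lower in D16S+ (0.81) and 11 and 1 in iPSCs (0.99), against 2 and 0 in D16S- (0.12). Pprc1, a coactivator of NRF1, had 29.3 FPKM in D0, 35.1 in D3, 38.9 in D6T-, 36.4 in D9T-, 44.2 in D12S+, 58.7 in D16S+, 116 in iPSCs, 69.4 in mESCs, 28.8 in D6T+, 28.4 in D9T+, 31.1 in D12S- and 36.4 in D16S-. Nrf1 was at 16.8 FPKM in D0, 24.9 in D16S+, 35.6 in iPSCs and 30.2 in mESCs, and Ppargc1a was at most 0.0878 FPKM. The members' own median in these libraries was -0.30 in D16S+, -0.43 in D16S-, -0.14 in iPSCs and 0.22 in mESCs.

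Carriers and coupling proteins around the chain were read beside the members. Slc25a4, the heart and muscle form of the ADP/ATP carrier, had 899.9 FPKM in D0, 866 in D3, 666 in D6T-, 400.0 in D9T-, 247 in D12S+, 201 in D16S+, 277 in iPSCs, 417 in mESCs, 739.9 in D6T+, 544 in D9T+, 381 in D12S- and 375 in D16S-, while Slc25a5 stayed between 217 and 486 FPKM. Ucp2, an uncoupling protein family member, had 25 FPKM in D0, 8.88 in D3, 109 in D6T-, 426 in D9T-, 330.3 in D12S+, 199.9 in D16S+, 212 in iPSCs, 245 in mESCs, 62.8 in D6T+, 351 in D9T+, 404 in D12S- and 406 in D16S-. Both fractions of days 9 to 16 stood far above D0 for Ucp2. Cyct, the testis form of cytochrome c, was at 55.4 FPKM in D16S+, 16.0 in D12S+, 8.54 in iPSCs, 3.48 in mESCs and 1.01 FPKM or less in the other 8 libraries, and Cycs, the common form, ran from 8.57 FPKM in D16S- to 23.4 FPKM in D6T-.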

How the data were processed

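Poly(A) RNA of 12 libraries was sequenced on Illumina instruments after Trizol and column extraction and TruSeq preparation. Per the labels and the study's methods, the authors aligned reads to mm9 with STAR, removed reads with more than 2 mismatches or more than 1 locus, and estimated FPKM with an interval per gene with cuffdiff. Versions, annotation and library scaling are not given in the sources used here. The deposited values are FPKM, not counts, and 12 status columns of that program were not used. The FPKM columns were read as deposited, with each column matched to a sample by its title.

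Genes with at least 1 FPKM in any library were kept (14178). Differences were taken on log2(FPKM + 1), medians over the members were set beside the median over kept genes, and members at least 1.5-fold higher or lower were counted beside the percent of kept genes. With 1 library a condition there was no test, error or p-value. The computation was tested on simulated data with known fold changes. Groups came from the labels. Members, lists and promoter words were chosen with earlier results of these data known. By rule, full values were given for the highest member of each complex, the isoform families, the 3 largest differences each way in D3, D16S+, D16S- and iPSCs against D0 and in iPSCs against mESCs, and the 2 largest each way between fractions. The separate values of 1 member are not reported here. Other members named were chosen after their values were seen. Gene positions and lengths came from GENCODE M1 on NCBIM37 (mm9), with 88 of 92 members placed, and near-identical copies from BLAST+ 2.17.0. Promoters came from RefSeq on GRCm38.p6. Python 3.11.15, numpy 2.4.6, pandas 2.3.3 and matplotlib 3.10.9 were used. Alternatives were a pseudocount of 0.1 FPKM, equal library totals, median of ratios scaling, a minimum of 10 FPKM or none, subunits only, a 2-fold limit and the interval ends.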

Additional observations from a re-analysis of the deposited data

Results flagged for a closer look

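Ndufa4l2, the low oxygen paralogue of Ndufa4, differed in opposite directions between the fractions of different days. It stood 0.62 higher in D6T- than in D6T+ and 1.61 lower in D16S+ than in D16S- on the log2 scale, a gap of 2.23. Its values were 5.2 and 3.02 FPKM on day 6 and 87.4 and 269 FPKM on day 16. The difference between days was not tested, since each fraction is 1 library.

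Ndufs5, an accessory subunit of complex I, stood 1.03 higher in D6T- than in D6T+ and 0.88 lower in D12S+ than in D12S-, a gap of 1.91. Its values were 13.3 and 6.01 FPKM on day 6 and 7.21 and 14.1 FPKM on day 12. This difference was not tested either, and Ndufs5 has a near-identical copy at 1 other locus.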

How the results depend on the processing

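No paired analysis was possible because each condition had 1 library. Of 187 values recomputed under the alternatives listed in the methods, 147 stayed within their margin (0.1 for a log2 median, 1.5 times for a count, 5 percentage points for a share), 37 moved and 3 turned direction. With libraries set to equal totals the members' median against D0 turned to 0.11 in D3, 0.081 in D16S+ and 0.10 in iPSCs, and moved to -0.14 in D16S-, 0.13 in D9T- against D9T+ and 0.27 in D16S+ against D16S-. Counts under equal totals moved to 8 higher and 2 lower in D3, 14 lower in D16S+, 13 lower in D16S-, 20 higher and 6 lower in iPSCs and 6 higher in D12S+ against D12S-. Shares of all genes under equal totals, or with the pseudocount of 0.1 FPKM, are not given here. Median of ratios scaling, with factors from 0.967 to 1.04, moved the D16S- median to -0.33. At 2-fold against D0, 0 were higher and 1 lower in D3 (5.76% and 8.67% of all genes), 9 and 14 in D16S+ (20.0% and 20.9%), 8 lower in D16S- (11.4%), and 3 and 3 in iPSCs (18.7% and 21.6%). At 2-fold between fractions, 1 was higher on day 6 (2.93%), 1 and 0 on day 9 (1.81% and 6.45%), 1 and 0 on day 12 (4.79% and 3.03%) and 5 and 3 on day 16 (11.8% and 15.2%), and iPSCs against mESCs had 1 higher and 6 lower (6.79% and 7.41%). A pseudocount of 0.1 FPKM gave 4 higher in D3, 8 higher and 1 lower in D6T- against D6T+ and 4 higher in iPSCs against mESCs. Subunits alone gave 10 higher in D16S+, 1 higher in D12S+ against D12S- and 1 higher in iPSCs against mESCs. From the upper interval ends the Ndufa4l2 share was 60.2% in D12S-, 35.2% in D16S+ and 32.9% in mESCs.

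The distance of members from all genes was also recomputed, in 9 comparisons, in 4 ways chosen after seeing the data. The 9 comparisons were D3, D16S+, D16S- and iPSCs against D0, the sorted fractions of each day, and iPSCs against mESCs. It moved to -0.19 in D16S+ and -0.31 in D16S- against genes of at least 10 FPKM, and to -0.0093 in D3 and -0.33 in D16S- with equal totals. The other 32 of 36 stayed within 0.1. Equal totals multiply all genes of a library by the same factor. The distance can then move only through the 1 FPKM added before the log2. The cause of the shifts against genes of at least 10 FPKM was not tested. Read depth is unknown, so no counting error was computed for members at a few FPKM, such as Cox6a2, Cox8b and Ndufb4. Their deposited intervals were wide, with 0 to 5.34 FPKM for Cox6a2 and 0 to 17.0 for Cox8b in D0. For Ndufb4 in D16S+ the interval was 0 to 15.0 FPKM.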
